A study of Mus musculus with 9 samples.

Results

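The insulin-like growth factor (IGF) system was followed in injured mouse muscle through 10 genes chosen by name, out of 54532 genes in the count table. They are the ligand genes Igf1 and Igf2, the receptor genes Igf1r and Igf2r, and the binding protein genes Igfbp2, Igfbp3, Igfbp4, Igfbp5, Igfbp6 and Igfbp7. All 10 were present in the table and all 10 had enough counts to be tested in each comparison. The study injured the tibialis anterior muscle of C57/BL6J mice with barium chloride (BaCl2), a salt that destroys muscle fibres and sets off regeneration, and sequenced RNA from 9 libraries in 3 groups of 3. The young PBS group came from mice of 4 months given 3 injections of the salt buffer PBS after injury, and the old PBS group from mice of 24 months given the same. The old rMETRNL group came from mice of 24 months given 3 injections of recombinant meteorin-like (METRNL), a protein secreted by immune cells in damaged muscle. All 3 groups were thus injured and injected, and no uninjured muscle was analysed here. The sources differ on the material and its time, with whole muscle 8 days after injury in the study's text and a muscle cell suspension 4 days after injury in the sample labels and series description, and they differ on the dose, 0.1 ug or 0.1 ng per injection. The old PBS libraries are numbered 2, 3 and 4, and those of the other groups 1, 2 and 3.

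IGF1 and IGF2 are small secreted proteins that drive growth and survival of myoblasts and fibres. In muscle repair IGF1 is made largely by macrophages and by regenerating fibres, and IGF2 is made by differentiating myoblasts. Both signal through IGF1R, a tyrosine kinase that acts through AKT and mTOR, while IGF2R, the mannose 6-phosphate receptor, takes IGF2 up for breakdown in lysosomes. The binding proteins hold IGFs outside the cell, prolong their life and control their access to the receptor, and proteases free the ligand by cutting them. IGFBP6 prefers IGF2, and IGFBP7 binds IGFs only weakly. METRNL is known to act on macrophages through STAT3 to raise their IGF1, and the comparisons here ask how far the transcripts of this system differ with age and with rMETRNL in bulk muscle RNA.

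The 9 libraries held 16238700 to 22522560 counts, and 3 counts, taken as the floor, stood for 0.133 to 0.185 CPM, counts scaled to the TMM-adjusted library size. The 5 mature fibre genes Acta1, Ckm, Myh4, Myh1 and Tnnt3 summed to between 63230 and 106588 CPM, so muscle transcripts were present in each library. The old PBS libraries stood apart from the rest and from each other. Their 7 brain marker genes summed to 52.0 to 152 CPM, while young PBS had 3.33 to 4.39 and old rMETRNL 3.40 to 5.71, where Mobp and Snap25 were at 0 counts in both groups. Their 6 liver marker genes summed to 9.003 to 86.1 CPM, while young PBS had 0.113 to 0.462 and old rMETRNL 0.362 to 0.429, with Apoa1, Serpina1b and Fgb at 0 in both. Old PBS 3 had 4352 CPM over the new-fibre genes Myh3, Myh8 and Actc1, while old PBS 2 had 1122 and old PBS 4 had 514. The other 6 libraries lay between 1474 and 2009. The labels do not say whether each library is a separate animal, so p-values measure the spread between these libraries. In bulk RNA, fewer cells of a type and less RNA per cell cannot be told apart.

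Levels per kilobase of exon, which allow genes to be compared with each other, spanned more than 2 orders of magnitude in young PBS muscle. The highest was Igfbp7 at 177 ± 15.5 CPM per kb (SD, n = 3), followed by Igfbp5 at 143 ± 14.5. These ranges touched, from 160 to 188 for Igfbp7 and from 134 to 160 for Igfbp5, although Igfbp7 was the higher in each young library. Igfbp6 followed at 93.7 ± 18.8 CPM per kb and Igfbp4 at 62.7 ± 5.56, each apart from its neighbours. Igf2r, the receptor that clears IGF2, stood at 20.5 ± 3.75 CPM per kb. Igfbp3, the main carrier of IGFs in blood, had 14.5 ± 1.29 and overlapped with Igf1 at 12.6 ± 1.46. Igf2 at 3.10 ± 0.640 and Igf1r at 1.73 ± 0.237 were lower and did not overlap, and Igfbp2 was the lowest at 0.848 ± 0.206 CPM per kb. The value of Igf2 is divided by all its exonic bases, 62.8% of which it shares with another gene, so its place in this order is uncertain.

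The 3 binding protein genes with the most counts were Igfbp5, Igfbp4 and Igfbp7, and the 100 bases before their RefSeq start sites on GRCm38.p6 are shown because these genes carry most of the binding protein signal. TATAAA, searched on both strands in windows from 250 bases before to 50 after each start, was found in 2 of 14 windows of the 10 genes, 1 of Igfbp4 and 1 of Igfbp6, against 13.6% of 32851 windows of all genes. It is in capitals in Igfbp4, where it began 28 bases before the start. The motif TTCNNNGAA, to which STAT factors bind, was in 0 of the 14 windows and in 8.30% of all windows. These are letter matches in 1 short window per start and say nothing of binding. The bases run 5′ to 3′ on the strand of the gene. The stretches lie at chr11:99041144-99041243 on the plus strand for Igfbp4, chr1:72874866-72874965 on the minus strand for Igfbp5 and chr5:77408046-77408145 on the minus strand for Igfbp7.
Igfbp4: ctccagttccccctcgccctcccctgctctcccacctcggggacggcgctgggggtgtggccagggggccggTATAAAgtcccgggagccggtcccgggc
Igfbp5: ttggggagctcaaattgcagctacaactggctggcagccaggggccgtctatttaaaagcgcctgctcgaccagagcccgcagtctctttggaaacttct
Igfbp7: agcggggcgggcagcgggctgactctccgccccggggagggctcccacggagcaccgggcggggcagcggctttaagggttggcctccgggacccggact
The GC content was 75% for Igfbp4 and 77% for Igfbp7 but 55% for Igfbp5.

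None of the 10 genes passed an adjusted p-value of 0.05 in any comparison by edgeR's quasi-likelihood test. Between old PBS and young PBS 0 of 10 passed, against 0.0643% of the 15560 genes tested. With rMETRNL against old PBS 0 of 10 passed, against 0.108% of 15682, and between old rMETRNL and young PBS 0 of 10, against 0% of 15396. With backgrounds this low, a count of 0 says little about the 10 genes. At an unadjusted p under 0.05 the counts were 1, 0 and 0 of 10, the 1 being Igfbp2 with age, and over all genes tested they were 920, 1266 and 371. DESeq2, which called 1.42%, 1.78% and 0% of its genes, also called 0 of 10 in each comparison and gave 1 of 10 at an unadjusted p under 0.05 in each. Both comparisons with old PBS share its 3 libraries, so their values are not independent of each other.

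**Figure D1:**
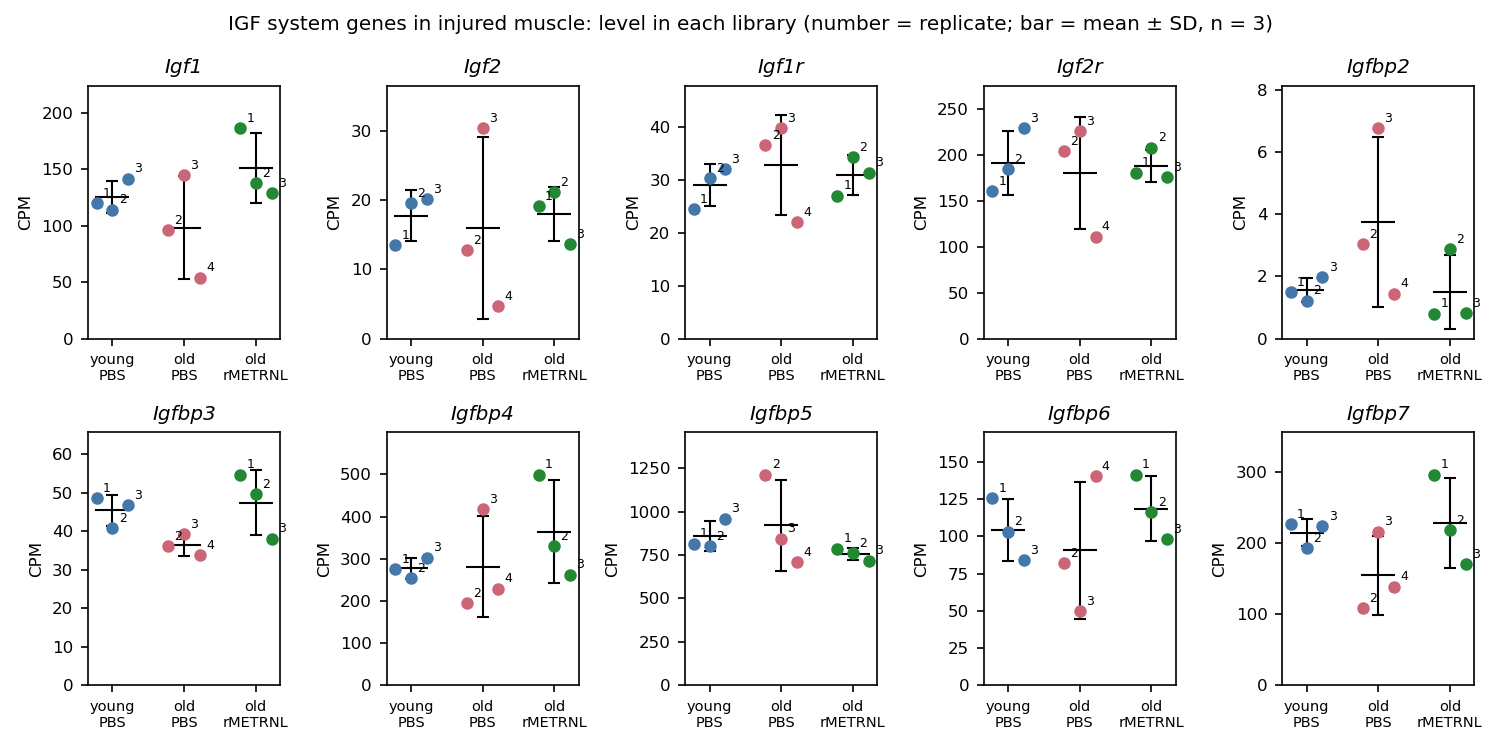
CPM of each of the 10 IGF system genes in each library, in panels with their own axis from 0, with points numbered by replicate and bars for the mean ± SD of 3 libraries. Old PBS libraries spread widely, and for Igf1, Igf2, Igf1r, Igf2r, Igfbp3 and Igfbp5 the lowest of the 9 points is old PBS 4.

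Igf1 (ENSMUSG00000020053) lies on chromosome 10 from 87858265 to 87937042 on the plus strand of GRCm38. Its level was 120.0, 114 and 142 CPM in young PBS 1, 2 and 3. It was 95.9, 145 and 53.9 CPM in old PBS 2, 3 and 4, and 186, 138 and 129 CPM in old rMETRNL 1, 2 and 3. Old PBS 4 and 2 were the lowest of all 9 libraries, old PBS 3 was the second highest, and the groups overlapped. Each old rMETRNL library was above the old PBS mean. The log2 fold change of old rMETRNL against old PBS was 0.61 (standard error, SE, 0.33, 95% interval -0.14 to 1.37, adjusted p = 0.682, edgeR's quasi-likelihood test). Old PBS against young PBS gave -0.35 (SE 0.32, interval -1.09 to 0.39, adjusted p = 0.994, edgeR). Old rMETRNL against young PBS gave 0.27 (SE 0.15, interval -0.07 to 0.60, adjusted p = 0.9996, edgeR).

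One library decided the call for Igf1. Without old PBS 3 its log2 fold change with rMETRNL was 1.01 (SE 0.26, adjusted p = 0.0395, edgeR), and without old PBS 4 it was 0.31. In that same fit without old PBS 3, Igfbp7 also passed, so 2 of 10 genes were called, both higher with rMETRNL, against 9.76% of 15981 genes called, 3.78% higher and 5.98% lower. With age, Igf1 gave -0.75 without old PBS 3 (adjusted p = 0.146, edgeR) and -0.06 without old PBS 4. The sum of 8 macrophage markers ranged from 1097 to 1433 CPM in old PBS, from 1409 to 1683 in young PBS and from 1564 to 1828 in old rMETRNL. By library it was 1097, 1433 and 1103 CPM in old PBS 2, 3 and 4. Old PBS 3 was thus the highest of its group in both, while old PBS 2 and 4 had 95.9 and 53.9 CPM of Igf1 at nearly equal marker sums. Old rMETRNL 1, with the most Igf1 of all libraries, had the lowest marker sum of its group at 1564 CPM. In the fit without old PBS 3, 7 of these 8 markers lay above 0 with rMETRNL and 1 below, with a median of 0.60. Of the 8, 3 were called, all higher, where 3.78% of all genes were called higher. None of these markers was at 0, and their part in the Igf1 levels was not tested.

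Igf2 (ENSMUSG00000048583) lies on chromosome 7 from 142650766 to 142666816 on the minus strand. It had 13.5, 19.6 and 20.2 CPM in young PBS and 19.1, 21.2 and 13.6 CPM in old rMETRNL. In old PBS 2, 3 and 4 it had 12.7, 30.4 and 4.66 CPM, from 74 to 695 counts. Old PBS thus held both the highest and the lowest library, 6.53-fold apart, against 1.49-fold within young PBS and 1.55-fold within old rMETRNL. The log2 fold change was -0.15 with age (SE 0.54, adjusted p = 0.994, edgeR) and 0.16 with rMETRNL (SE 0.53, adjusted p = 0.959, edgeR). Its interval with rMETRNL ran from -1.05 to 1.37. Without old PBS 3 these values were -1.04 and 1.049, and without old PBS 4 they were 0.29 and -0.29, so the direction turned with the library left out.

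H19, the maternally expressed noncoding RNA next to Igf2 in the same imprinted region, followed the same order in old PBS. It had 2853, 6636 and 2154 CPM in old PBS 2, 3 and 4, from 3376 to 5480 in young PBS and from 3539 to 4289 in old rMETRNL. New-fibre genes had that order as well, with 1122, 4352 and 514 CPM. Old PBS 3 was thus the highest of all 9 libraries for Igf2, H19 and the new-fibre sum, and old PBS 4 the lowest for all 3. The part of new fibres in the Igf2 level was not tested. Per the annotation, 62.8% of the exonic bases of Igf2 are shared with the read-through gene Gm49394, which is listed at 0 counts in each library, and 1.71% with the antisense gene Igf2os. Gm49394 lies on the same strand as Igf2, so a strand setting would not separate their reads. Igf2os lies on the other strand, and the strand setting of the counting is not given in the sources used here. Reads of such overlaps thus cannot be assigned with certainty, and how shared reads were counted was not tested.

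**Figure D2:**
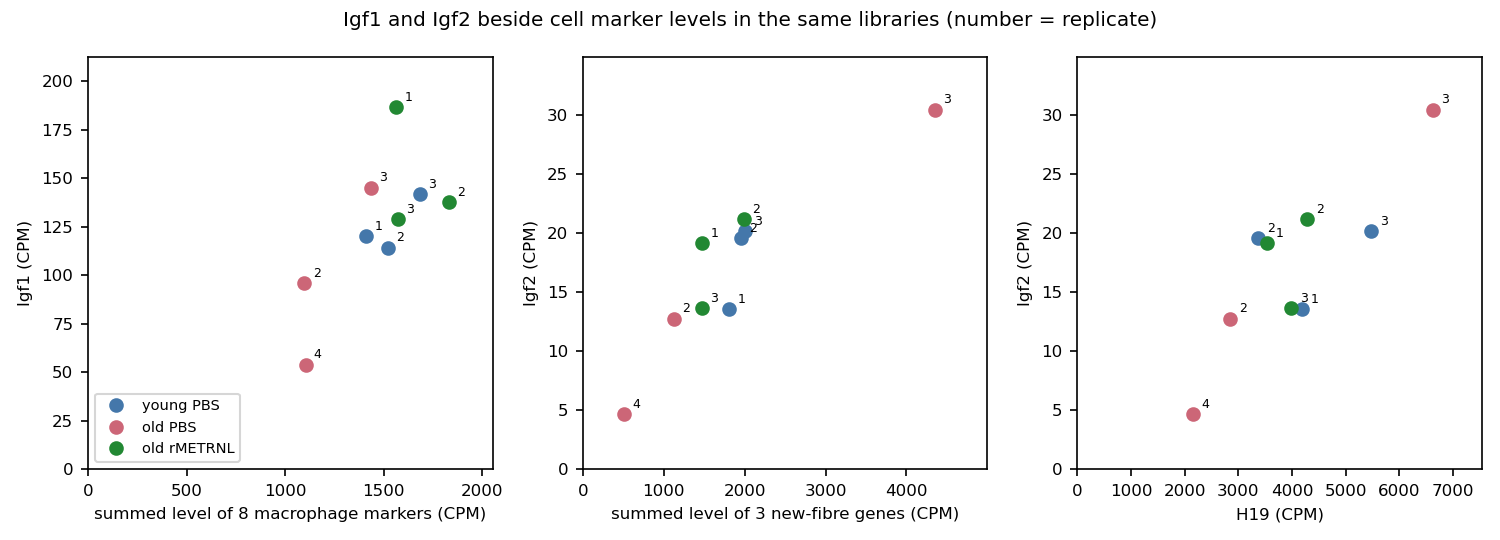
Igf1 against the summed CPM of 8 macrophage markers (left), and Igf2 against the summed CPM of 3 new-fibre genes (middle) and against H19 (right), all in CPM, with 1 numbered point per library coloured by group. Old PBS 3 lies at the upper right of the Igf2 panels and old PBS 4 at the lower left.

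From the lowest to the highest of the 9 libraries, the receptors spanned 1.81-fold for Igf1r and 2.06-fold for Igf2r, and the ligands 3.46-fold for Igf1 and 6.53-fold for Igf2. Igf1r (ENSMUSG00000005533), the signalling receptor, on chromosome 7 from 67952827 to 68233668, plus strand, had 24.5, 30.4 and 32.1 CPM in young PBS. It had 36.6, 39.9 and 22.03 CPM in old PBS and 27.1, 34.4 and 31.4 CPM in old rMETRNL. Old PBS again held the highest and the lowest library. Its log2 fold change was 0.18 with age (SE 0.24, adjusted p = 0.994, edgeR) and -0.09 with rMETRNL (SE 0.23, adjusted p = 0.939, edgeR). The interval with rMETRNL, from -0.61 to 0.43, leaves room for a change of either direction.

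Igf2r (ENSMUSG00000023830), on chromosome 17 from 12682406 to 12769664, minus strand, had 160.0, 184 and 229 CPM in young PBS. It had 204, 226 and 111 CPM in old PBS and 180.4, 208 and 176 CPM in old rMETRNL. Old PBS 4 alone was low and the groups overlapped. Igf2r had a log2 fold change of -0.09 with age (SE 0.29, adjusted p = 0.994, edgeR) and 0.06 with rMETRNL (SE 0.27, adjusted p = 0.971, edgeR). Airn, the noncoding RNA read antisense through Igf2r, shares 0 of its exonic bases and had 9.82 to 18.0 CPM over the 9 libraries. Per kilobase, Igf2r exceeded Igf1r by 10.9 to 12.9 times in young PBS, 9.08 to 10.2 times in old PBS and 10.1 to 12.0 times in old rMETRNL. This ratio and those below were chosen after the values were seen and are given without a test.

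With all libraries, Igfbp2 had the largest fold changes of the 10 genes in both comparisons with old PBS, at the lowest counts. The gene (ENSMUSG00000039323) lies on chromosome 1 from 72824503 to 72852474, plus strand, next to Igfbp5. It had 1.503, 1.22 and 1.98 CPM in young PBS and 3.03, 6.78 and 1.45 CPM in old PBS. In old rMETRNL it had 0.804, 2.89 and 0.815 CPM, and the counts of the 9 libraries ran from 15 to 155. Old PBS 3 was far above the rest, while old PBS 4 lay within the young range. The log2 fold change with age was 1.27 (SE 0.54, interval 0.04 to 2.51, unadjusted p = 0.0448 and adjusted p = 0.817, edgeR). With rMETRNL it was -1.35 (SE 0.66, interval -2.85 to 0.15, adjusted p = 0.661, edgeR). Without old PBS 3 these values were 0.51 and -0.59, smaller in size than those of Igf2. The value with age was 1.65 without old PBS 4, and that with rMETRNL was -2.22 without old rMETRNL 2. Old rMETRNL against young PBS gave -0.08 for Igfbp2. IGFBP2 is also made in liver and brain, and old PBS 2, the library with the highest liver marker sum at 86.1 CPM, had 3.03 CPM of Igfbp2, whereas old PBS 3 with 32.4 CPM of liver markers had 6.78. The 4 choroid plexus markers summed to at most 2.90 CPM in any library. The part of these transcripts in Igfbp2 was not tested.

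Igfbp3 (ENSMUSG00000020427), on chromosome 11 from 7206086 to 7213923, minus strand, did not overlap between old PBS and young PBS. It had 48.6, 40.8 and 46.7 CPM in young PBS, 36.1, 39.2 and 33.7 CPM in old PBS, and 54.7, 49.5 and 38.0 CPM in old rMETRNL. Each old PBS library was below each young PBS library. Among the 10 genes it was the 1 that did not overlap in this direction, against 5.25% of all genes tested, and 0 of 10 did so in the other direction, against 5.28%. Igfbp3 had a log2 fold change of -0.32 with age (SE 0.15, interval -0.66 to 0.02, adjusted p = 0.874, edgeR). With rMETRNL it was 0.38 (SE 0.18, interval -0.02 to 0.78, adjusted p = 0.643, edgeR). Old rMETRNL 3, at 38.0 CPM, lay within the old PBS range, so the groups overlapped. With any 1 library left out the value with age stayed between -0.40 and -0.27, and that with rMETRNL between 0.27 and 0.51.

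Igfbp4 (ENSMUSG00000017493), on chromosome 11 from 99041244 to 99054392, plus strand, encodes a binding protein that blocks IGF action until it is cut by the protease PAPP-A. It had 275, 253 and 302 CPM in young PBS, 195, 418 and 229 CPM in old PBS, and 500, 329 and 262 CPM in old rMETRNL. Old rMETRNL 1 was the highest library and old PBS 3 the second highest. The log2 fold change with rMETRNL was 0.37 (SE 0.34, adjusted p = 0.800, edgeR) and with age 0.02 (SE 0.29, adjusted p = 0.998, edgeR). The value with rMETRNL was 0.78 without old PBS 3 and 0.07 without old rMETRNL 1. Old rMETRNL against young PBS gave 0.39 (SE 0.20, interval -0.05 to 0.83, adjusted p = 0.9996, edgeR), and 0.09 without old rMETRNL 1.

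Igfbp5 (ENSMUSG00000026185), on chromosome 1 from 72857932 to 72874884, minus strand, encodes the binding protein most tied to muscle differentiation. It had 816, 803 and 960 CPM in young PBS and 786, 761 and 717 CPM in old rMETRNL. In old PBS it had 1214, 845 and 707 CPM, with old PBS 2 the highest and old PBS 4 the lowest of the 9 libraries. Each old rMETRNL library was below each young PBS library, as for 2.95% of all genes tested, and 0 of 10 genes were above in each pair, against 3.92%. That difference was small, with a log2 fold change of -0.19 (SE 0.13, interval -0.47 to 0.10, adjusted p = 0.9996, edgeR). Old rMETRNL against old PBS gave -0.29 (SE 0.25, adjusted p = 0.790, edgeR) and -0.04 without old PBS 2. Old PBS against young PBS gave 0.10 (SE 0.26, adjusted p = 0.994, edgeR) and -0.15 without old PBS 2.

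Igfbp6 (ENSMUSG00000023046), on chromosome 15 from 102144362 to 102149511, plus strand, encodes the binding protein with a preference for IGF2. It had 126, 103 and 83.9 CPM in young PBS, 82.2, 49.5 and 140.5 CPM in old PBS, and 142, 116 and 98.3 CPM in old rMETRNL. Among old PBS libraries its order was the reverse of that of Igf2, with old PBS 3 the lowest and old PBS 4 the highest. Igfbp6 had a log2 fold change of -0.20 with age (SE 0.35, adjusted p = 0.994, edgeR) and 0.39 with rMETRNL (SE 0.34, adjusted p = 0.790, edgeR). Without old PBS 4 it was -0.67 and 0.84, and without old PBS 3 it was 0.09 and 0.09.

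Igfbp7 (ENSMUSG00000036256), on chromosome 5 from 77349240 to 77408041, minus strand, encodes a protein of vessel walls and matrix. It had 227, 193 and 224 CPM in young PBS, 108, 216 and 139 CPM in old PBS, and 296, 219 and 171 CPM in old rMETRNL. Old PBS 2 and 4 were the lowest of the 9 libraries, and old PBS 3 lay within the young range. The log2 fold change was -0.48 with age (SE 0.26, interval -1.07 to 0.12, adjusted p = 0.959, edgeR). With rMETRNL it was 0.56 (SE 0.30, interval -0.12 to 1.24, adjusted p = 0.678, edgeR). Without old PBS 3 these were -0.80 (adjusted p = 0.0576, edgeR) and 0.89 (adjusted p = 0.0471, edgeR). The value with age was -0.28 without old PBS 2, and that with rMETRNL was 0.33 without old rMETRNL 1. Without old PBS 3, 2.52% of genes were called with age, 1.82% higher and 0.705% lower, and 0 of the 10 genes were among them, with 5 at an unadjusted p under 0.05 where 3322 of all 15884 genes were. The endothelial markers Pecam1, Cdh5, Kdr and Tek summed to 294 to 358 CPM in young PBS, 194 to 295 in old PBS and 285 to 381 in old rMETRNL. The part of vessels in the Igfbp7 level was not tested. Per the annotation, 7.03% of its exonic bases overlap with Polr2b on the other strand.

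**Figure D3:**
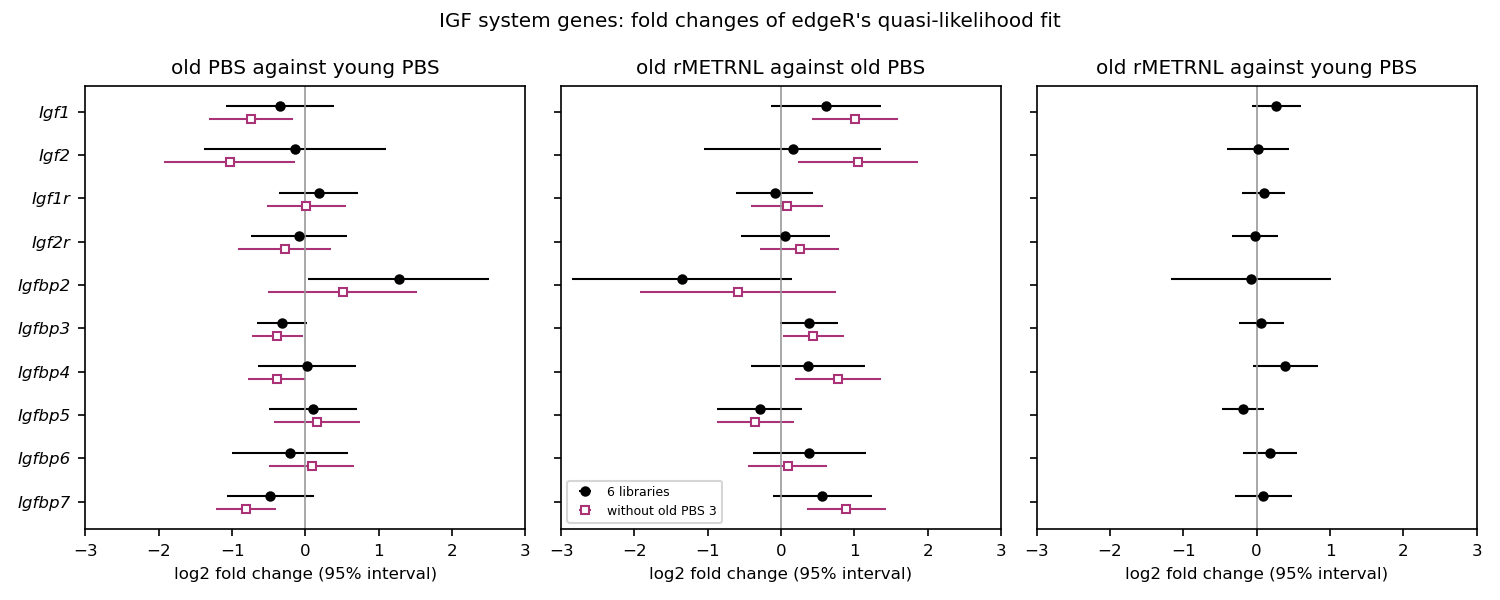
Log2 fold changes with 95% intervals of the 10 genes in each comparison by edgeR's quasi-likelihood fit, with filled circles for all 6 libraries and open squares for the fit without old PBS 3 where it applies. With all libraries, the intervals include 0 except that of Igfbp2 with age, and without old PBS 3 those of Igf1, Igf2, Igfbp3, Igfbp4 and Igfbp7 exclude 0 in both comparisons with old PBS, where 3322 of 15884 genes with age and 4410 of 15981 with rMETRNL were at an unadjusted p under 0.05.

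With rMETRNL against old PBS, 7 of 10 genes lay above 0 in log2 fold change, with a median of 0.26, against a median of -0.01 and 49.3% above 0 over all genes tested. In the same comparison 7 of 7 markers of fibro-adipogenic cells, the connective tissue cells of muscle, lay above 0 with a median of 0.57. Of these, 0 were called by edgeR with all libraries. Their sum was 1324 to 1816 CPM in old PBS, 1683 to 2362 in old rMETRNL and 1473 to 1831 in young PBS. Of the 4 tendon markers 3 lay above 0 with a median of 0.72, and their sum was 142 to 203 CPM in old PBS, 267 to 314 in old rMETRNL and 212 to 517 in young PBS. All 8 macrophage markers lay above 0 with a median of 0.45. By edgeR with all libraries, 0 of the tendon and macrophage markers were called. DESeq2 called 2 of 4 tendon, 1 of 7 fibro-adipogenic and 0 of 8 macrophage markers higher, against 0.216% of its genes. Without old PBS 3, edgeR called 2 of 4, 1 of 7 and 3 of 8 higher in the same order, against 3.78% of 15981 genes. Of the endothelial markers 4 of 4 lay above 0 (median 0.37), as did 4 of 4 of the myogenic cell genes Pax7, Myf5, Myod1 and Myog (0.23). Of the mature fibre genes 4 of 5 lay below 0 (median -0.21), and of the new-fibre genes 2 of 3 (-0.51). These 4 lists had 0 called too, by edgeR or DESeq2 with all libraries. The direction of the new-fibre genes turned without old PBS 3, where 3 of 3 lay above 0 (median 1.05, 1 called higher). In that fit 4 of 4 myogenic cell genes lay above 0 (median 0.74, 1 called higher). Of the mature fibre genes 4 of 5 again lay below 0 (-0.48, 0 called). None of the markers of these lists was at 0 in a whole group, and their part in the IGF genes was not tested. Between old PBS and young PBS 6 of 10 were below 0, with a median of -0.12, against a median of 0.01 over all genes. Between old rMETRNL and young PBS the median was 0.08, the values ran from -0.19 to 0.39 and 7 of 10 were above 0. For 0 of the 10 genes were the libraries of old rMETRNL and old PBS fully apart, where 6.95% of all genes were higher in each pair of libraries and 5.69% lower.

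Relative to its mean, the spread over libraries was widest in old PBS for all of the 10 genes but Igfbp2 and Igfbp3. The share of all genes with this pattern was not counted. Outside the system it held, for example, for Akt1 and Ptprc but not for Lyz2, so it is not particular to these 10 genes. The SD as a percent of the mean was 46.4 for Igf1 in old PBS, while young PBS had 11.5 and old rMETRNL 20.6. For Igf2 it was 82.6 in old PBS, 20.7 in young PBS and 21.7 in old rMETRNL. For Igfbp3 it was 7.48 in old PBS, 8.91 in young PBS and 18.0 in old rMETRNL.

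The make-up of the binding protein transcripts kept 1 order in young PBS and old rMETRNL, and old PBS libraries differed. Taken per kilobase and as a share of the 6 genes, Igfbp7 made up 34.9 to 36.7% in young PBS and 33.5 to 38.6% in old rMETRNL. It ranked first in all 6 of those libraries, ahead of Igfbp5, Igfbp6, Igfbp4, Igfbp3 and Igfbp2 in that order. In old PBS 2 Igfbp5 led with 47.8% and Igfbp7 held 21.2%. In old PBS 3 Igfbp7 led with 37.6%, and in old PBS 4 Igfbp6 led with 29.9%. The 3 old libraries thus had 3 different leading genes. The order of the old PBS means, Igfbp5 before Igfbp7, turned around without old PBS 2. The ratio of Igfbp7 to Igfbp5 per kilobase was 1.16 to 1.38 in young PBS, 1.18 to 1.87 in old rMETRNL, and 0.443, 1.27 and 0.973 in old PBS 2, 3 and 4.

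**Figure D4:**
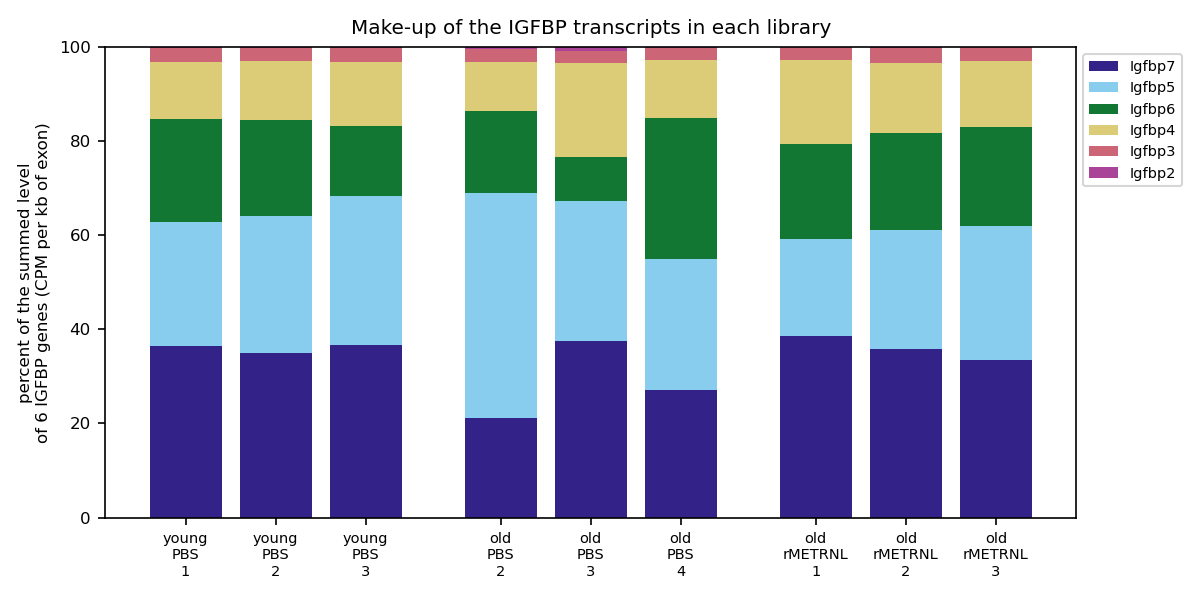
Share of each of the 6 binding protein genes in their summed level (CPM per kb of exon, percent) in each of the 9 libraries. The 3 young PBS and 3 old rMETRNL bars have Igfbp7 as the largest share, and the 3 old PBS bars differ, with Igfbp5 at 47.8% in old PBS 2 and Igfbp6 at 29.9% in old PBS 4.

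Ligand was also set against binding protein within each library. The level of Igf1 per kilobase was 2.35 to 2.83% of the sum of the 6 binding protein genes in young PBS and 2.76 to 3.09% in old rMETRNL. In old PBS 2, 3 and 4 it was 2.29, 3.09 and 1.29%. Against Igfbp5 alone, Igf1 per kilobase was 0.0862 to 0.0895 in young PBS and 0.109 to 0.144 in old rMETRNL. In old PBS it was 0.0479, 0.104 and 0.0462, so old PBS 3 lay between the young PBS and old rMETRNL ranges and old PBS 2 and 4 below both.

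The genes whose levels followed the ligands most closely over the 9 libraries were found among 9229 genes with a mean of at least 10 CPM, by Pearson's r of log2 CPM. For Igf1 they were Plekha5 (r = 0.979), Epb41l2 (0.978), Sept8 (0.9752), Fam49a (0.9751) and Daam2 (0.9747). For Igf2 they were Sh3pxd2a (r = 0.983), Ppp1r9a (0.980), Plekhg3 (0.978), Nisch (0.977) and Itga9 (0.977). For all 10 of these genes old PBS 4 was the lowest library. These values describe 9 libraries whose fibre and macrophage markers also vary, and the highest of 9229 values is high by selection.

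Metrnl, the gene of the injected protein, was measured as the transcript made by the tissue, which the injected protein itself does not add to. It had 29.0, 26.0 and 24.2 CPM in young PBS, 15.6, 20.3 and 21.6 CPM in old PBS, and 32.0, 28.1 and 24.7 CPM in old rMETRNL. Old PBS was below both other groups with no overlap, as for 5.25% of genes against young PBS and for 6.95% of genes higher in old rMETRNL. Neither difference passed, with log2 fold changes of -0.46 with age (SE 0.17, adjusted p = 0.738, edgeR) and 0.56 with rMETRNL (SE 0.18, adjusted p = 0.451, edgeR). Stat3, a transcription factor activated by cytokines, had 94.9 to 112 CPM in young PBS, 81.3, 124 and 68.5 in old PBS, and 98.3 to 107 in old rMETRNL. Its log2 fold change with rMETRNL was 0.14 (SE 0.23, adjusted p = 0.889, edgeR). With Kit these made a list of 3 genes from METRNL to IGF1, of which 0 passed in each comparison.

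Among 18 genes of the ternary complex, the proteases and the neighbours of the IGF genes, 13 were tested and 0 passed in each comparison by edgeR, with 1 at an unadjusted p under 0.05 in each. Their median log2 fold change was -0.14 with age and -0.03 with rMETRNL. Igfbp1, a binding protein of liver, had 4 counts in old PBS 2 and 0 in the other 8 libraries. Igfals, which stabilizes the circulating complex, had 0.734 to 2.08 CPM. Pappa, the protease that cuts IGFBP4, had 0.623 to 2.52 CPM and Stc2, which inhibits it, 3.27 to 8.05. Insr, the insulin receptor, had 79.3 to 97.3 CPM in young PBS, 87.6 to 116 in old PBS and 77.4 to 89.3 in old rMETRNL, with a log2 fold change of -0.29 with rMETRNL (SE 0.17, adjusted p = 0.699, edgeR).

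Htra1, a secreted serine protease that cuts binding proteins such as IGFBP5, was singled out after its values were seen. It had 79.1, 59.7 and 82.2 CPM in young PBS, 50.8, 45.1 and 50.2 CPM in old PBS, and 108, 72.9 and 71.3 CPM in old rMETRNL. All 3 old PBS libraries were below all 6 others. Taking each comparison alone, 5.25% of all genes tested were lower in each pair of libraries with age and 6.95% higher with rMETRNL. Its log2 fold change with rMETRNL was 0.79 (SE 0.20, interval 0.33 to 1.24), with an adjusted p of 0.262 by edgeR and 0.0465 by DESeq2. It was the 1 gene that DESeq2 called in this comparison from the 4 pathway lists, with 17, 7, 32 and 3 genes fitted. DESeq2 called 1.78% of all genes there, 0.216% higher and 1.56% lower. With age it was -0.60 (SE 0.17, adjusted p = 0.457, edgeR). Without old PBS 3 the value with rMETRNL was 0.74 (adjusted p = 0.0516, edgeR), so this gene, unlike Igf1 and Igf2, moved little with that library.

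The growth hormone axis, which raises IGF1 in liver and muscle, had 7 genes tested. With all libraries 0 passed in each comparison, with a median log2 fold change of -0.06 with age and 0.01 with rMETRNL. Ghr, the growth hormone receptor, had 157, 170 and 133 CPM in young PBS, 212, 146 and 228 CPM in old PBS, and 133, 135 and 158 CPM in old rMETRNL. Its order in old PBS was the reverse of that of Igf1. With rMETRNL its log2 fold change was -0.46 (SE 0.21, adjusted p = 0.640, edgeR), and without old PBS 3 it was -0.63 (adjusted p = 0.0387, edgeR). Ghr was the 1 of 7 called in that fit. Of all 15981 genes tested there, 9.76% were called, 3.78% higher and 5.98% lower. Socs2, a feedback inhibitor induced by growth hormone, had 12.3 to 24.5 CPM and a log2 fold change of -0.21 with rMETRNL (SE 0.28, adjusted p = 0.865, edgeR).

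Of the 32 genes of signalling below IGF1R, all were tested and 0 passed in each comparison, with 1, 2 and 0 at an unadjusted p under 0.05, where 920 of 15560, 1266 of 15682 and 371 of 15396 genes were. In the fit without old PBS 3, 1 of the 32 was called with rMETRNL, against 5.98% of genes called lower, and 11 of 32 were at an unadjusted p under 0.05, against 4410 of 15981. The 1 was Foxo4, a transcription factor restrained by AKT and named after its values were seen, with a log2 fold change of -0.70 (SE 0.19, adjusted p = 0.0442, edgeR). With all libraries the median log2 fold change of the list was 0.08 with age, with 22 above 0 and 10 below, and -0.09 with rMETRNL, with 10 above 0 and 22 below. Irs1, the adaptor that couples the receptor to PI3 kinase, had 42.2, 58.8 and 63.1 CPM in young PBS, 53.8, 39.9 and 20.5 CPM in old PBS, and 61.7, 63.5 and 59.5 CPM in old rMETRNL. Each old rMETRNL library was above each old PBS library, with a log2 fold change of 0.69 (SE 0.30, unadjusted p = 0.0464 and adjusted p = 0.611, edgeR). Of the 32 genes, 2 were higher in each such pair of libraries and 1 was lower, against 6.95% and 5.69% of all genes tested. Irs2, the second such adaptor, had 10.8 to 19.6 CPM in young PBS, 12.7 to 19.1 in old PBS and 13.4 to 15.6 in old rMETRNL. Foxo1, a transcription factor that AKT keeps out of the nucleus, was named after its values were seen. It had 14.7 to 17.4 CPM in young PBS, 20.0 to 24.2 in old PBS and 16.4 to 17.2 in old rMETRNL, and all old PBS libraries were above all others. With age, 1 of the 32 genes was higher in each pair of libraries and 1 was lower, against 5.28% and 5.25% of all genes tested. Its log2 fold change was 0.46 with age (SE 0.16, adjusted p = 0.695, edgeR) and -0.36 with rMETRNL (SE 0.16, adjusted p = 0.618, edgeR).

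**Figure D5:**
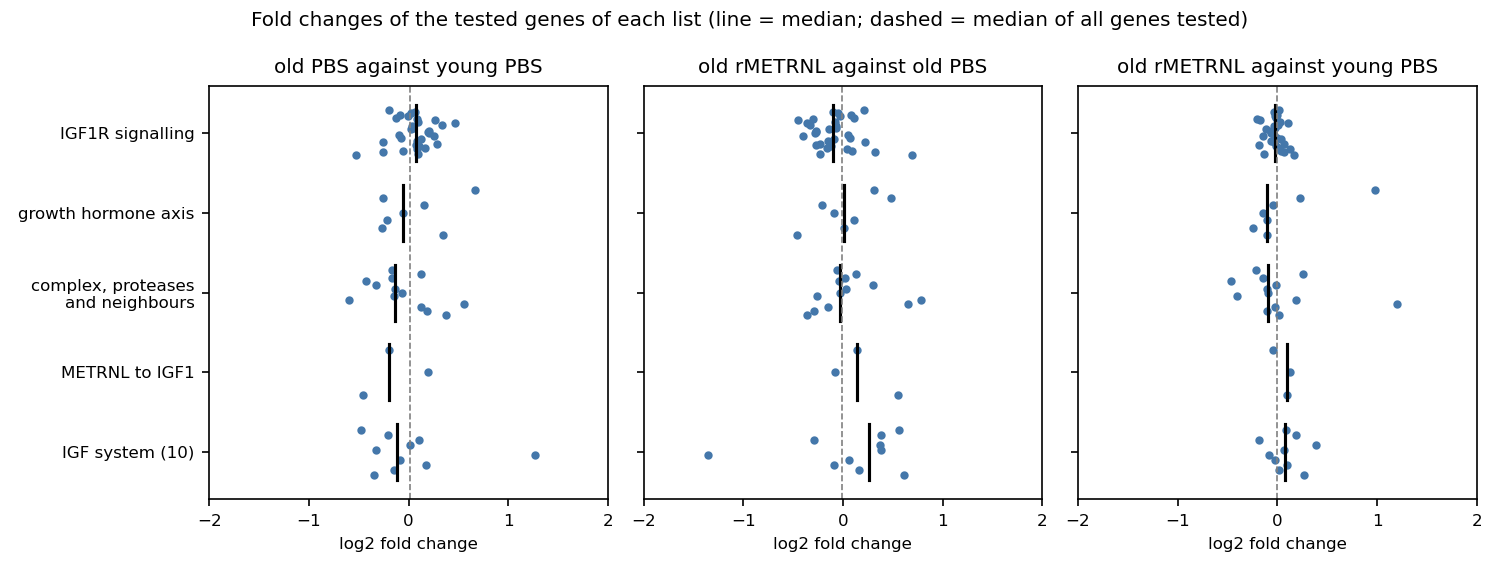
Log2 fold change of each tested gene of the IGF system and of 4 pathway lists in each comparison, with a black line for the median of the list and a dashed line for the median of all genes tested. The medians run from -0.19 to 0.26 over the 3 comparisons, and the widest single value is that of Igfbp2 at -1.35 with rMETRNL.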

How the data were processed

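The authors deposited raw counts of reads per Ensembl gene, without normalization and with libraries kept apart. The submitters' processing notes name STAR, featureCounts and the build mm9, with no versions. Of the gene identifiers, 99.9% were in the GENCODE annotation of GRCm38 used here, so coordinates and exon lengths are those of GRCm38. Symbols were found for 54409 genes. Groups were compared in pairs with edgeR 4.0.16 in R 4.3.3 (filterByExpr, TMM, glmQLFit, glmQLFTest), and p-values were adjusted by Benjamini-Hochberg over all genes tested, with a threshold of 0.05. Standard errors (SE) are the fold change divided by the root of F. CPM used TMM factors of all 9 libraries. The comparison was tested on simulated counts, with planted changes larger than any of the 10 genes had with all libraries. That test does not cover smaller changes or a library that departs from its group. The 10 genes, the lists and the named genes were chosen with earlier results of these data known. Named were the 10 genes, others fixed by name, the 5 genes most like each ligand, and any list gene past the threshold. Alternatives were DESeq2 1.42.0 with its defaults, its size factors, other filters, all 9 libraries fitted together, a block for the replicate number, and each library left out. Promoters were from RefSeq, and figures from matplotlib 3.10.9.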

Additional observations from a re-analysis of the deposited data

How the results depend on the processing

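Of 360 recomputed log2 fold changes of the 10 genes, 330 kept their direction and side of the threshold, 2 passed it and 28 changed direction. The 2 were Igf1 and Igfbp7 with rMETRNL without old PBS 3, and no gene passed it under another alternative. With 3 libraries a group, the depth limits Igfbp2 most, at 15 to 155 counts. The number of genes called between old PBS and young PBS was 354 with no filter, 3 with at least 10 counts in every library, 265 by DESeq2 and 63 with all 9 libraries in 1 fit, against 10, and 2 to 401 with 1 library left out. Between old rMETRNL and old PBS it was 740, 1, 354 and 71 in the same order, against 17, and 3 to 1560 with 1 library left out, where 0 to 2 of the 10 genes passed. Between old rMETRNL and young PBS it was 132 with no filter, against 0, and 0 to 1 with 1 library left out. The highest counts for both comparisons with old PBS came without old PBS 3. The cause was not tested.

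With 1 library left out, the log2 fold changes with age that changed direction ran from -1.04 to 0.29 for Igf2, -0.28 to 0.17 for Igf2r, -0.39 to 0.23 for Igfbp4, -0.15 to 0.26 for Igfbp5 and -0.67 to 0.088 for Igfbp6. With rMETRNL against old PBS they ran from -0.29 to 1.049 for Igf2, -0.32 to 0.079 for Igf1r and -0.21 to 0.25 for Igf2r. With rMETRNL against young PBS they ran from -0.15 to 0.18 for Igf2, -0.017 to 0.18 for Igf1r, -0.14 to 0.13 for Igf2r, -0.95 to 0.23 for Igfbp2, -0.052 to 0.20 for Igfbp3 and -0.14 to 0.26 for Igfbp7.

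The libraries share only numbers. Deviations of same-numbered libraries from their group means correlated between -0.32 and 0.41, and those of differently numbered libraries between -0.44 and 0.38. With the replicate number as a block, 65 genes were called between old rMETRNL and old PBS and 11 between old PBS and young PBS, 0 of the 10 genes passed, and the direction turned for Igf2 (0.0075 with age, -0.23 with rMETRNL) and Igf2r (0.063 and -0.17). In these blocked fits old PBS 4 has no same-numbered partner, and neither has old rMETRNL 1 or, with age, young PBS 1. Such a library adds nothing to the group difference, which rests on replicates 2 and 3. Igf1 with rMETRNL went from 0.61 to 0.17 and Igfbp4 from 0.37 to 0.032. Old PBS 4 and old rMETRNL 1 were the lowest and highest libraries for Igf1. The order of binding proteins in old PBS changed without old PBS 2 (Igfbp7 first) and without old PBS 4 (Igfbp4 before Igfbp6).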
